A study of Saccharomyces cerevisiae with 9 samples.

Results

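The early meiosis genes IME1 (YJR094C), IME2 (YJL106W), NDT80 (YHR124W), SPO11 (YHL022C), REC102 (YLR329W), REC114 (YMR133W), HOP1 (YIL072W), REC8 (YPR007C), ZIP1 (YDR285W) and SPO13 (YHR014W) were followed in yeast fermenting sugar cane molasses with and without industrial antifoam agents. These 10 genes were chosen by name from the 6357 rows of the deposited count table, and all 10 had a row. The cells were *Saccharomyces cerevisiae* CAT-1, an industrial strain of Brazilian fuel-ethanol plants, carried through 5 cycles of fed-batch fermentation with acid treatment between cycles and sampled at hour 4 of the last cycle. There were 9 RNA-seq libraries in 3 groups of 3: control fermentations without antifoam, fermentations with the antifoam labelled Ind_B and fermentations with the antifoam labelled Ind_Z. The medium, the recycling and the acid treatment were shared by all groups, and the labels give neither the composition nor the dose of the antifoams. Nothing in the labels says that the libraries of a group came from separate cultures, so p-values measure the spread between these libraries, which may be technical.

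In budding yeast, meiosis is normally entered by diploid cells that carry both mating types and are starved of nitrogen in the absence of a fermentable carbon source. The transcription activator Ime1 then works with the DNA-binding protein Ume6 to switch on the early genes, whose promoters often hold the URS1 element, while in growing mitotic cells Ume6 holds the same genes down with a histone deacetylase. Early gene products pair and recombine homologous chromosomes, and Ndt80 later activates the middle genes that carry cells through the meiotic divisions and spore formation.

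The core of URS1 was searched for as GCCGCC on both strands (GGCGGC on the other) in the 300 bases before the start codon of each gene in the RefSeq R64 genome of the laboratory strain S288C, with R64's own gene models. It was present upstream of 5 of the 10 genes and of 5.21% of all 6007 coding genes with such a window. The matches are shown because URS1 is the element that early genes share. Each sequence reads toward its gene on the coding strand, with the core in capitals. The sequence of CAT-1 itself was not used here.

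HOP1: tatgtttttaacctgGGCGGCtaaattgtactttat

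REC114: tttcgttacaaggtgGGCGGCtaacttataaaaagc

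REC8: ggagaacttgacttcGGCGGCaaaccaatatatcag

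SPO13: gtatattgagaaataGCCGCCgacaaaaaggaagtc

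ZIP1: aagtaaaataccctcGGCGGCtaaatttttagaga

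The windows printed lie at chrIX:226416-226451 on the plus strand for HOP1, chrXIII:536100-536135 on the plus strand for REC114 and chrXVI:571542-571577 on the minus strand for REC8. Those of SPO13 and ZIP1 lie at chrVIII:131937-131972 and chrIV:1032401-1032435, both on the plus strand. The coding strand reads GGCGGC in HOP1, REC114, REC8 and ZIP1 and GCCGCC in SPO13. No match in this window says only that these letters are not in it, as for IME2, NDT80, SPO11, REC102 and IME1. The middle sporulation element, the site bound by Ndt80, was searched for as GNCACAAA on both strands (TTTGTGNC on the other) and was found upstream of 4.11% of coding genes. Among the 10 genes it was found upstream of NDT80 alone, at 2 places.

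NDT80, farther match: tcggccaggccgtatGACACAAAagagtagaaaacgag

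NDT80, nearer match: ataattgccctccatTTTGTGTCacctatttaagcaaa

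These windows, with the element in capitals, lie at chrVIII:356325-356362 and chrVIII:356461-356498 on the plus strand.

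The early meiosis transcripts were scarce in every library. Together they took 67.0 to 183 CPM of a library before scaling, from 441 counts in control13 to 3276 in Ind_B replicate 3. Totals over all rows ranged from 5900571 to 18245935 per library. The column names control12 and control13 match no sample title, and both were used as control libraries without a replicate number. One of them stood apart: 9.87% of the 6137 genes tested differed in control13 by more than 1 on the log2 scale from the mean of the other 2 controls, whereas the same share was 0.261% to 2.57% for the other 8 libraries against the rest of their groups. In control13, 7 of the 10 early meiosis genes lay below the mean of the other controls and 3 above, and the median log2 difference was −0.60 over the 9 that passed the filter on low counts (−0.36 with the tenth, IME1) against −0.03 over all genes tested. Values without control13 therefore stand beside the members' values.

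Levels are given as CPM with library sizes scaled by the trimmed mean of M-values (TMM), and between genes as CPM per kb of coding length in R64. HOP1 had the highest level per length, at a mean of 16.2 CPM per kb over the 9 libraries (range 10.5 to 24.1). ZIP1 followed at 12.4, REC102 at 8.13, REC114 at 7.01, NDT80 at 5.79, REC8 at 5.36, SPO11 at 5.24, IME2 at 4.31, SPO13 at 3.06 and IME1 at 0.482 CPM per kb. All 10 were below the median of 46.2 CPM per kb over 5774 coding genes: 13.4% of coding genes had a lower level than HOP1 and 0.572% a lower level than IME1. Neighbours in the upper and middle part of the order were not cleanly separated. HOP1 exceeded ZIP1 in 7 of 9 libraries, REC114 exceeded NDT80 in 6 and REC8 exceeded SPO11 in 4. IME2 exceeded SPO13 and SPO13 exceeded IME1 in 9 of 9. The order is that of the 9 libraries pooled. In the control libraries alone ZIP1, at a mean of 12.2 CPM per kb, stood above HOP1 at 11.6 (15.1 and 11.9 without control13). REC8, at 6.46 there, stood above REC114 at 6.16 and NDT80 at 5.39, and without control13 it was below both, at 5.17 against 7.60 and 5.48.

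**Figure D1:**
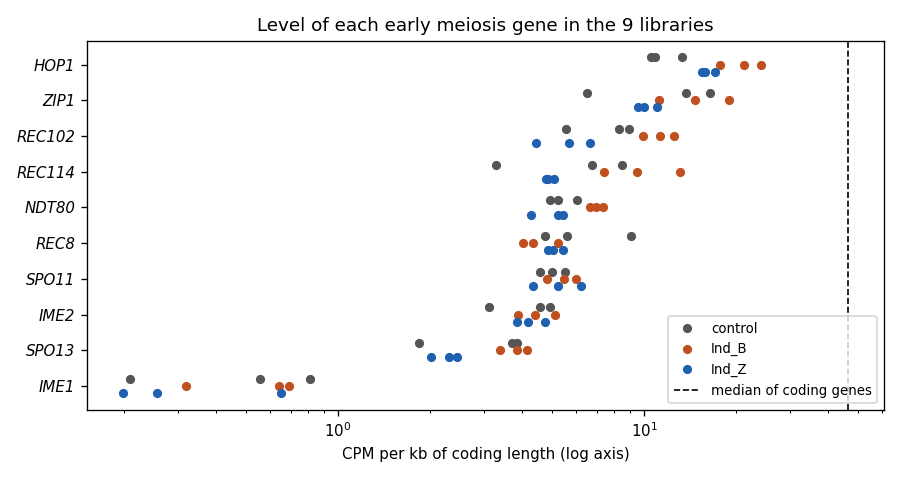
Level of each early meiosis gene in CPM per kb of coding length on a log axis, 1 point per library, coloured by group, with the median of 5774 coding genes as a dashed line at 46.2. All points lie left of that line, from IME1, the lowest at a mean of 0.482, to HOP1, the highest at 16.2.

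Of the 3 regulators, IME1 was too rare to compare, IME2 had groups that overlapped and NDT80 had its 3 highest libraries in Ind_B. IME1, the activator that starts the programme, had 17, 3 and 3 counts in control1, control12 and control13. The Ind_B libraries, here and below in the order of replicates 1, 2 and 3, had 5, 7 and 16 counts, and those of Ind_Z had 4, 4 and 2. The 95% exact Poisson intervals, which cover counting error only, ran from 9.90 to 27.2 for the 17 counts and from 0.242 to 7.22 for the 2 counts. All 3 groups overlapped, at 0.227 to 0.878 CPM in control, and a difference in IME1 was not detectable at this depth. It was the 1 member that did not pass the filter on low counts, so 9 of 10 members were tested.

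IME2, a protein kinase that promotes meiotic entry and acts with Ime1 and Ndt80, had 185, 117 and 30 counts in control1, control12 and control13, or 9.55, 8.84 and 6.02 CPM. It was at 7.51, 8.53 and 9.91 CPM in Ind_B and at 8.12, 9.19 and 7.42 CPM in Ind_Z. The groups overlapped throughout. The log2 change was 0.05 ± 0.20 (SE) for Ind_B and −0.03 ± 0.20 for Ind_Z against control, with 95% intervals of −0.39 to 0.49 and −0.48 to 0.42. Without control13 it was −0.0912 and −0.17, so that the sign for Ind_B turned.

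NDT80, the activator of the middle genes, was at 9.24, 11.4 and 9.83 CPM in control1, control12 and control13 (179, 151 and 49 counts). It was at 13.1, 12.5 and 13.9 CPM in Ind_B (190, 126 and 295 counts) and at 9.85, 10.3 and 8.07 CPM in Ind_Z (142, 58 and 75 counts). Every Ind_B library lay above every other library, and control and Ind_Z overlapped. The log2 change was 0.37 ± 0.15 for Ind_B against control and −0.49 ± 0.16 for Ind_Z against Ind_B. By the quasi-likelihood F-test of edgeR, with p-values adjusted over all genes tested by the Benjamini-Hochberg method, neither was called (adjusted p = 0.240 and 0.107). Without control13 the changes were 0.35 and −0.48, and the lower level in Ind_Z than in Ind_B was then called by edgeR (adjusted p = 0.0413). In that fit 9.31% of all genes were called lower in Ind_Z than in Ind_B, against 0.0652% with all 9 libraries.

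Among the genes for making meiotic DNA breaks, REC102 and REC114 shared an order of group means, highest in Ind_B and lowest in Ind_Z. SPO11 did not share it. SPO11 encodes the topoisomerase-like protein that cuts the DNA, and REC102 and REC114 encode accessory proteins that the cut needs. SPO11 was at 5.47, 5.97 and 6.62 CPM in the controls, 7.16, 5.76 and 6.57 in Ind_B and 5.20, 7.43 and 6.24 in Ind_Z, from 33 to 140 counts per library. Its groups overlapped, and its log2 change was 0.13 ± 0.19 for Ind_B and 0.06 ± 0.19 for Ind_Z against control, or 0.19 and 0.11 without control13.

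REC102 was at 6.56, 7.10 and 4.42 CPM in control1, control12 and control13 (127, 94 and 22 counts). It was at 8.96, 9.92 and 7.89 CPM in Ind_B (130, 100 and 168 counts) and at 4.51, 3.54 and 5.27 CPM in Ind_Z (65, 20 and 49 counts). Ind_B lay above all other libraries, while Ind_Z overlapped the controls only through control13. The log2 change was 0.52 ± 0.21 for Ind_B and −0.46 ± 0.23 for Ind_Z against control, comparisons that share the control libraries, and −0.98 ± 0.22 for Ind_Z against Ind_B (edgeR adjusted p = 0.234, 0.295 and 0.0720). Without control13 these changes were 0.37, −0.59 and −0.95, and that between the antifoams was then called by edgeR (adjusted p = 0.00447). Between the antifoams that fit called 9.31% of all genes lower in Ind_Z.

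REC114 was at 8.68, 10.9 and 4.21 CPM in control1, control12 and control13 (168, 144 and 21 counts). It was at 9.51, 16.9 and 12.2 CPM in Ind_B (138, 170 and 259 counts) and at 6.24, 6.54 and 6.13 CPM in Ind_Z (90, 37 and 57 counts). Ind_Z lay below Ind_B throughout. The controls overlapped Ind_B, and they overlapped Ind_Z only through control13. The log2 change of Ind_Z against Ind_B was −1.02 ± 0.31 (edgeR adjusted p = 0.0964), and without control13 it was called (edgeR adjusted p = 0.00912). That fit called 9.31% of all genes lower in Ind_Z than in Ind_B. Against control the change was 0.62 ± 0.29 for Ind_B and −0.40 ± 0.31 for Ind_Z, and without control13 it was 0.38 and −0.63.

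Among the genes of chromosome structure, HOP1 had the largest fitted change of the 9 tested members in Ind_B against control, and that of REC8 was downward. HOP1 encodes a protein of the meiotic chromosome axis that also signals DNA breaks. It was at 19.2, 24.2 and 19.7 CPM in control1, control12 and control13, from 371, 320 and 98 counts. It was at 32.2, 43.8 and 38.5 CPM in Ind_B (467, 441 and 820 counts) and at 28.1, 30.9 and 28.7 CPM in Ind_Z (405, 175 and 267 counts). The 3 groups did not overlap, with Ind_B highest and control lowest, and control13 lay among the other controls.

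The log2 change of HOP1 was 0.86 ± 0.15 for Ind_B against control, 0.47 ± 0.15 for Ind_Z against control and −0.38 ± 0.15 for Ind_Z against Ind_B. None of the 3 was called by edgeR (adjusted p = 0.0558, 0.135 and 0.144). Without control13 the 3 changes were 0.81, 0.44 and −0.37. For Ind_B against control the adjusted p in edgeR was 0.0138 without control12, where 2.81% of genes were called higher. It was 0.0453 without control13 and 0.0487 with upper-quartile factors, where 0.146% and 0.0978% of genes were called higher. It was 0.101 to 0.234 without any 1 of the other 7 libraries and 0.285 in a fit on the 6 libraries of the comparison. DESeq2 gave 0.000233. In an F-test of all 3 groups at once in the same fit, a test added after seeing the data, HOP1 was the 1 member called (adjusted p = 0.0406), where 2.00% of all genes tested were called. Without control13 the same test called HOP1, REC102, REC114 and SPO13, where 23.7% of genes were called. The HOP1 call of that test ended without control1 (0.102), without Ind_B replicate 1, 2 or 3 (0.0546, 0.0829 and 0.0860) and without Ind_Z replicate 1, 2 or 3 (0.0865, 0.131 and 0.153).

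REC8, the meiosis-specific cohesin subunit that replaces its mitotic counterpart, was at 9.71, 11.4 and 18.5 CPM in control1, control12 and control13 (188, 151 and 92 counts). It was at 8.20, 8.83 and 10.7 CPM in Ind_B and at 11.1, 9.90 and 10.3 CPM in Ind_Z. Control13 stood above all other libraries and the remaining 8 overlapped. The log2 change was −0.46 ± 0.23 for Ind_B and −0.29 ± 0.24 for Ind_Z against control, and without control13 it was −0.18 and 0.0025.

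ZIP1, a structural protein of the synaptonemal complex that zips paired chromosomes together, was at 43.1, 36.0 and 17.1 CPM in control1, control12 and control13 (835, 477 and 85 counts). It was at 38.6, 29.5 and 49.9 CPM in Ind_B and at 26.2, 29.0 and 25.1 CPM in Ind_Z. Control13 was the lowest library, control1 and control12 lay within the Ind_B range, and all Ind_Z libraries lay below all Ind_B libraries. The log2 change against control was 0.27 ± 0.29 for Ind_B and −0.30 ± 0.29 for Ind_Z, and without control13 it was −0.0090 and −0.57. For Ind_Z against Ind_B it was −0.56 ± 0.29 (edgeR adjusted p = 0.246), and without control13 it was −0.56 and called (edgeR adjusted p = 0.0459). In that fit 9.31% of all genes were called lower in Ind_Z than in Ind_B.

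SPO13 helps keep sister chromatids together at the meiosis I division. It was the rarest of the 9 members tested, with 65, 43 and 8 counts in control1, control12 and control13. Its level was 3.36, 3.25 and 1.61 CPM in those libraries, 2.96, 3.37 and 3.62 in Ind_B and 2.01, 1.77 and 2.15 in Ind_Z. Ind_Z lay below Ind_B and below control1 and control12, and control13 was lowest of all. The log2 change was 0.18 ± 0.24 for Ind_B and −0.55 ± 0.27 for Ind_Z against control. Without control13 the changes were 0.0030 and −0.72, and the change in Ind_Z was then called by edgeR (adjusted p = 0.0404). For Ind_Z against Ind_B the change was −0.73 ± 0.26 (edgeR adjusted p = 0.130), and without control13 it was −0.72 and called (edgeR adjusted p = 0.0262). Without control13, 6.54% of all genes were called lower in Ind_Z than in control and 9.31% lower than in Ind_B.

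**Figure D2:**
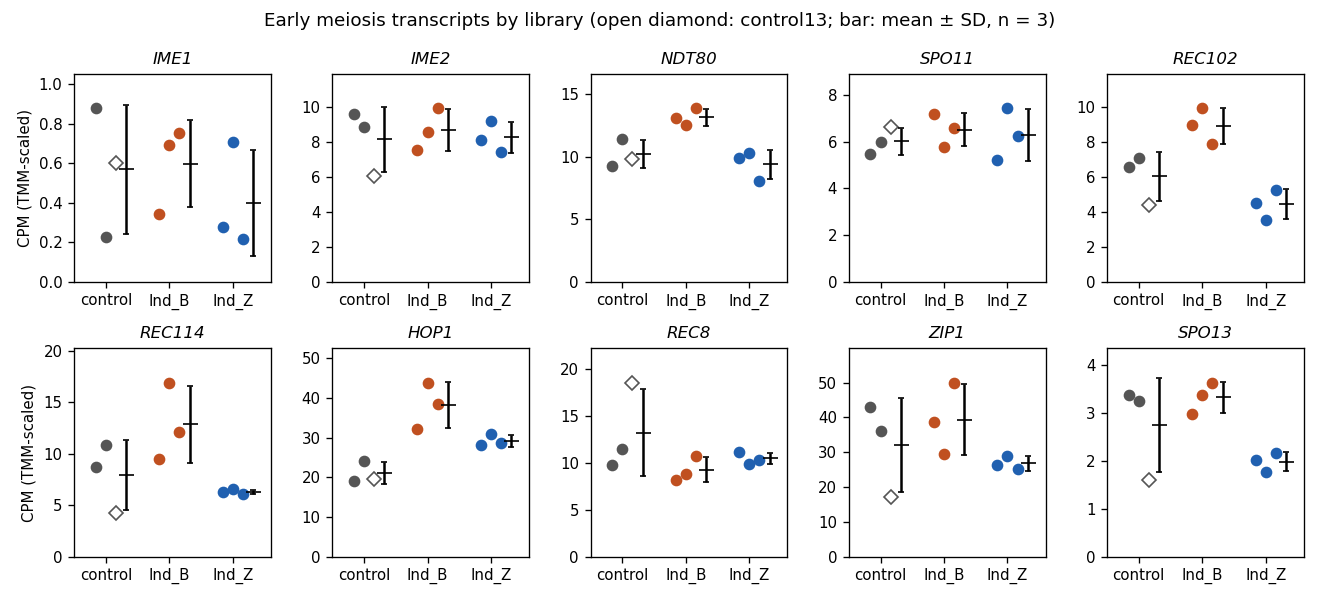
CPM of each early meiosis gene in the 9 libraries, by group, with the mean ± SD of 3 libraries as a bar and control13 as an open diamond. HOP1 is at 19.2 to 24.2 CPM in control, 32.2 to 43.8 in Ind_B and 28.1 to 30.9 in Ind_Z, whereas in ZIP1, REC114, SPO13 and REC8 the control spread is set by control13.

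Over the 9 members tested, mean CPM was highest in Ind_B for 8 and in control for 1, which was REC8. It was lowest in Ind_Z for 5 (REC102, REC114, SPO13, ZIP1 and NDT80), in control for 3 (IME2, HOP1 and SPO11) and in Ind_B for 1 (REC8). Without control13 the mean was highest in Ind_B for 6 and in control for 3, IME2, REC8 and ZIP1, and it was lowest in Ind_Z for 6, in control for 2 and in Ind_B for 1. The shares of all genes with each order are not given here, so these counts alone do not set the members apart. The same holds for the counts of upward and downward changes below. In these bulk libraries fewer cells expressing a gene and less RNA per cell cannot be told apart.

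Ind_B was compared with control to ask whether that antifoam changed these transcripts. Of the 9 members tested 0 were called by edgeR, against 9 of 6137 genes, or 0.147%. At an unadjusted p under 0.05 there were 3 members, HOP1, REC102 and NDT80, against 19.1% of all genes tested. DESeq2 called 1 member higher, HOP1, where 2.36% of genes with an adjusted p were called higher. All 3 Ind_B libraries lay above all 3 controls for the same HOP1, REC102 and NDT80, which was so for 12.0% of genes tested. The fitted change was upward for 8 of 9 members, with a median of 0.27 against 0.01 over all genes tested. Without control13 the median over the same 9 members was 0.19, and 0.10 with IME1, which then passed the filter. HOP1 was the member called in that fit, where 0.146% of genes were called higher.

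Ind_Z was compared with control to ask the same of the other antifoam. Again 0 of 9 members were called by edgeR, against 2.13% of genes tested. One member, HOP1, had an unadjusted p under 0.05, against 19.3% of genes, and DESeq2 called 0 where 7.08% of genes were called. HOP1 was also the member with all 3 Ind_Z libraries above all 3 controls, which held for 13.5% of genes tested. The fitted change was downward for 7 of 9 members, HOP1 and SPO11 being the exceptions, although for IME2, at −0.03, the mean CPM was slightly higher in Ind_Z (8.24 against 8.14). The changes had a median of −0.29 against −0.03 over all genes tested. Without control13 the median over the same 9 members was −0.17, and −0.37 with IME1. SPO13 was called lower in that fit, where 6.54% of genes were called lower.

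Ind_Z was compared with Ind_B to ask whether the antifoams differed from each other. Of 9 members 0 were called by edgeR with all libraries in the fit, against 0.424% of genes tested, and 5 had an unadjusted p under 0.05, against 25.5% of genes. All 3 Ind_Z libraries lay below all 3 Ind_B libraries for 6 members, NDT80, REC102, REC114, HOP1, ZIP1 and SPO13, which was so for 21.5% of genes tested. The fitted change was downward for 8 of 9, with a median of −0.49 against −0.03 over all genes tested. REC8, at 0.18 ± 0.23, was the exception.

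This count of calls depended on the libraries in the fit. Without control13, edgeR called REC102, REC114, SPO13, NDT80 and ZIP1 lower in Ind_Z than in Ind_B, where 9.31% of genes were called lower. With any other single library left out it called 0 members. In a fit on the 6 antifoam libraries alone it called REC102, REC114, SPO13 and NDT80, where 7.40% of genes were called lower. DESeq2 called REC102 and REC114, where 3.13% of genes were called lower. The fold changes themselves moved little: that of REC102 was −0.98 with all libraries, −0.95 without control13, −0.96 in the 6 antifoam libraries and −0.96 in DESeq2.

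**Figure D3:**
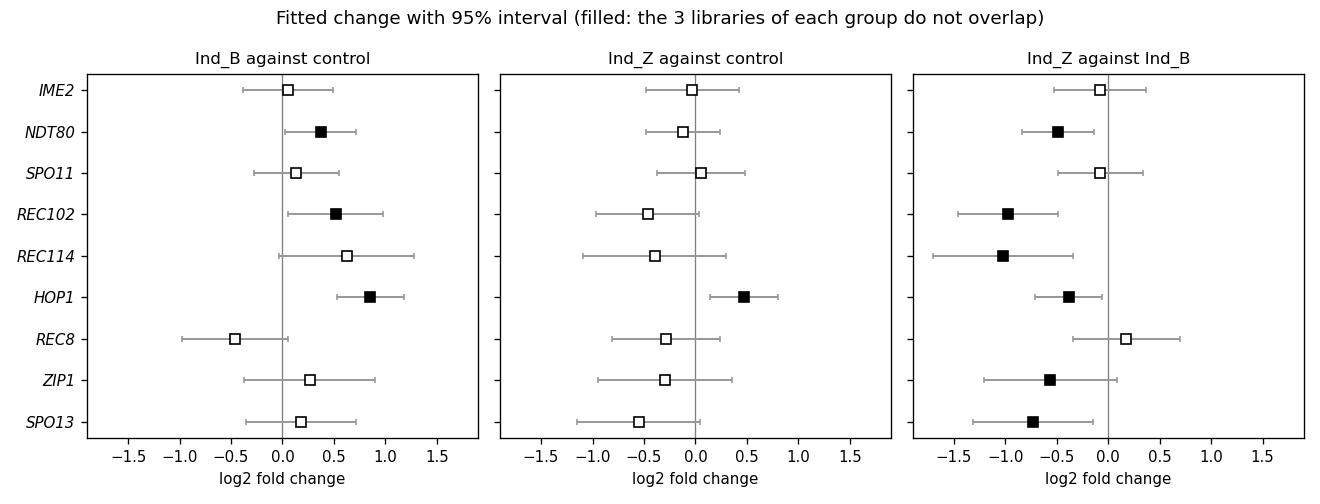
Fitted log2 fold change of the 9 tested members with its 95% interval in the 3 comparisons, filled where the 3 libraries of each group do not overlap. HOP1 is the member whose interval lies above 0 in both comparisons with control, and 6 members are filled on the lower side in Ind_Z against Ind_B.

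With all 9 libraries, the members that hold the URS1 core within 300 bases did not all share a direction. REC8 alone differed from the others in Ind_B against control and in Ind_Z against Ind_B. In Ind_B against control the 5 with the core ran from −0.46 (REC8) to 0.86 (HOP1) on the log2 scale, and the 4 tested members without it ran from 0.05 (IME2) to 0.52 (REC102). In Ind_Z against Ind_B they ran from −1.02 (REC114) to 0.18 ± 0.23 (REC8) with the core and from −0.98 (REC102) to −0.08 (SPO11) without it. In Ind_Z against control they ran from −0.55 (SPO13) to 0.47 (HOP1) with the core and from −0.46 (REC102) to 0.06 (SPO11) without it. When control13 was left out of Ind_B against control, REC8 was at −0.18 ± 0.17 and ZIP1 at −0.0090 with the core. IME2, without the core, was then at −0.0912.

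Other genes of the meiotic programme were described from 3 lists. Of 20 regulators of meiotic entry, such as UME6, RIM11 and RIM15, 20 were tested and 0 were called by edgeR in any of the 3 comparisons. Their medians were −0.02 for Ind_B and −0.07 for Ind_Z against control and −0.07 for Ind_Z against Ind_B. The lowest p in Ind_B was that of SLZ1, a subunit of the complex that methylates messenger RNA early in meiosis, at 20.7 ± 5.84 CPM against 12.6 ± 2.32 in control (SD, n = 3 libraries; log2 change 0.68 ± 0.21, edgeR adjusted p = 0.158). In Ind_Z it was that of YHP1, a homeobox repressor gene, at 20.9 ± 2.14 against 60.6 ± 59.4 CPM in control, where 1 control library reached 129 CPM, and its log2 change was −1.50 with all libraries and −0.35 without control13. In Ind_Z against Ind_B it was that of TPK3, a catalytic subunit gene of protein kinase A, at 38.8 ± 1.80 against 49.8 ± 5.12 CPM (−0.36 ± 0.12, edgeR adjusted p = 0.116). Without control13, edgeR called 1 of the 20 lower in Ind_Z than in control and 2, TPK3 among them, lower in Ind_Z than in Ind_B, where 6.54% and 9.31% of all genes were called lower.

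Of 27 other genes of recombination, chromosome axis and synapsis 25 passed the filter and 0 were called by edgeR in any comparison. Their median was 0.41 for Ind_B against control with 22 of 25 upward, 0.03 for Ind_Z against control and −0.39 for Ind_Z against Ind_B with 19 of 25 downward. Without control13 these medians were 0.24, −0.07 and −0.37, and edgeR then called 2 higher and 3 lower in Ind_Z than in control, where 13.1% of all genes were called higher and 6.54% lower. It called 11 of 25 lower in Ind_Z than in Ind_B, against 9.31% of all genes. MND1 and NDJ1, named next, were among those called in that fit. The lowest p in Ind_B was that of MER1, a splicing factor for meiotic introns, at 22.6 ± 4.51 CPM against 13.6 ± 1.03 in control (0.72 ± 0.17, edgeR adjusted p = 0.104). In Ind_Z against control it was that of MND1, which helps strands invade the homologous chromosome, at 24.8 ± 3.30 against 14.3 ± 2.98 CPM (0.77 ± 0.19, edgeR adjusted p = 0.0685). In Ind_Z against Ind_B it was that of NDJ1, a meiotic telomere protein, at 3.72 ± 0.475 against 6.26 ± 0.187 CPM (−0.73 ± 0.17, edgeR adjusted p = 0.0720).

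Of 24 middle and late sporulation genes 21 passed the filter and 0 were called by edgeR in any comparison. Their medians were 0.31 for Ind_B and −0.15 for Ind_Z against control and −0.37 for Ind_Z against Ind_B, and 0.21, −0.16 and −0.35 over the same genes without control13. In that fit edgeR called 1 of 21, SPO21, higher in Ind_Z than in control, against 13.1% of all genes, and 4 of 21, GAS4 among them, lower in Ind_Z than in Ind_B, against 9.31%. SPS100, a late gene for spore wall maturation, had the lowest p in Ind_B, at 60.2 ± 29.4 CPM against 17.8 ± 5.73 in control (1.71 ± 0.34, edgeR adjusted p = 0.0720). SPO21, a gene of the meiotic spindle pole plaque, had the lowest p in Ind_Z against control, at 23.4 ± 2.72 against 13.0 ± 4.05 CPM (0.82 ± 0.22, edgeR adjusted p = 0.0935). GAS4, a glucanosyltransferase gene of spore wall assembly, had it in Ind_Z against Ind_B, at 7.48 ± 0.524 against 12.6 ± 0.803 CPM (−0.75 ± 0.18, edgeR adjusted p = 0.0721).

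**Figure D4:**
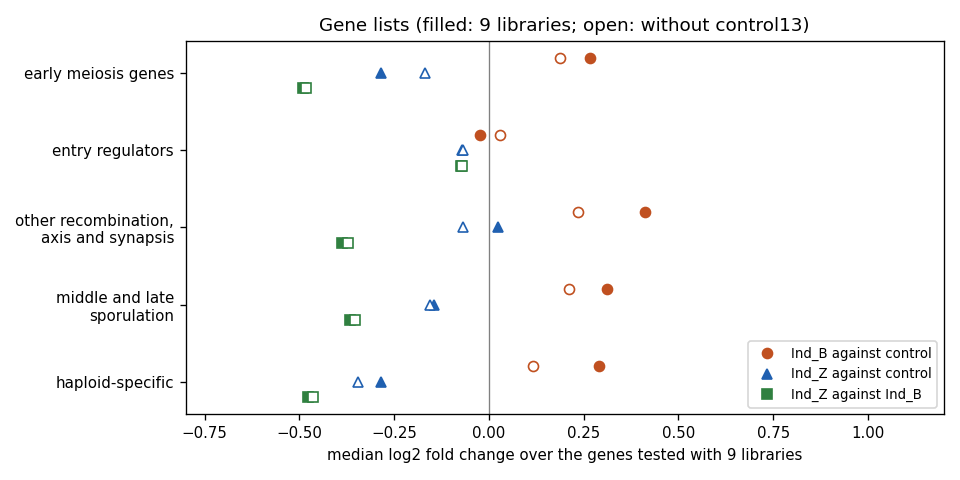
Median log2 fold change of the early meiosis genes, the 3 lists of other meiosis genes and the haploid-specific genes in the 3 comparisons, filled with all 9 libraries and open without control13. For the early meiosis genes the medians are 0.27, −0.29 and −0.49, and the open symbols of Ind_B against control lie nearer 0 than the filled ones in each list except the entry regulators.

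The labels give a strain and no ploidy or mating type. Haploid-specific and mating genes, which are kept low in cells with both mating types, were therefore read beside the meiosis genes. Of 18 such rows 15 passed the filter. The pheromone genes MFA1, MFA2 and MF(ALPHA)1 were at 0 to 6 counts in every library, while MF(ALPHA)2, another alpha-factor gene, was at 40 to 274. STE3, the a-factor receptor gene, was at 0 to 15 counts and STE2, the alpha-factor receptor gene, at 49 to 403. RME1, a repressor of IME1, was at 21 to 205 counts. The highest counts of the 18 rows were those of SST2, at 168 to 1241, and STE5, at 102 to 1046. Of 6 mating type genes looked for, HMRA1 was the 1 matched to a row, at 84 to 403 counts, so the others could not be read here.

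The summed level of the 18 rows was 179 to 238 CPM in control, 239 to 274 in Ind_B and 197 to 205 in Ind_Z, so Ind_B lay highest here too. Their median log2 change was 0.29 for Ind_B and −0.28 for Ind_Z against control and −0.48 for Ind_Z against Ind_B, and their part in the values of the early meiosis genes was not tested. Without control13 the medians were 0.12, −0.35 and −0.46. In that fit edgeR called 1 of 15 higher in Ind_B than in control, where 0.146% of all genes were called higher. It called 2 higher and 2 lower in Ind_Z than in control, where 13.1% of all genes were called higher and 6.54% lower. In Ind_Z against Ind_B it called 1 higher and 8 lower, where 14.2% of all genes were called higher and 9.31% lower. FUS3, a mating pheromone kinase gene, rose in Ind_Z, at 24.7 ± 1.73 against 15.4 ± 2.03 CPM in control (0.68 ± 0.15, edgeR adjusted p = 0.0457), and was at 27.5 ± 2.84 CPM in Ind_B (0.84 ± 0.14, adjusted p = 0.0558). The call in Ind_Z ended without control1 (edgeR adjusted p = 0.206), without Ind_B replicate 1 or 2 (0.0777 and 0.0603), without Ind_Z replicate 1, 2 or 3 (0.0891, 0.169 and 0.236), with upper-quartile factors (0.0735) and in a fit on the 6 libraries (0.0871). GPA1, the gene of the G protein alpha subunit of the mating pathway, had the lowest p in Ind_Z against Ind_B, at 6.49 ± 0.427 against 11.6 ± 2.26 CPM (−0.83 ± 0.22, edgeR adjusted p = 0.0803).

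The genes whose pattern was most like the mean of the 9 tested members were BUB1, AMD2, SPR1, SNF3 and ATH1. Likeness was the root mean square difference over the 9 libraries between centred log2 CPM and the members' mean, among the 5641 other genes whose counts averaged 50 or more. It was 0.0607 for BUB1, a spindle checkpoint kinase gene, 0.0617 for AMD2, an amidase gene, 0.0672 for SPR1, a sporulation-specific glucanase gene, 0.0674 for SNF3, a sensor of low glucose, and 0.0676 for ATH1, the acid trehalase gene. The members themselves lay at 0.141 (NDT80) to 0.481 (REC8), and the median of the other genes was 0.292. HOP1 (0.292), REC102 (0.293), REC114 (0.356) and REC8 lay no nearer to the members' mean than that median.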

How the data were processed

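Total RNA of 9 fermentation samples was made into Illumina TruSeq libraries after enzymatic depletion of ribosomal RNA, per the labels' protocols. The authors deposited raw read counts per annotated feature; TopHat2 2.0.9 and HTSeq 0.6.0 appear in the submitters' processing notes. No source used here states the build, annotation or strand setting, so overlapping antisense transcripts cannot be told apart. Of 6357 rows, 5848 matched RefSeq R64 names. No member overlapped another R64 coding gene, and BLAST+ 2.17.0 found 0 near-identical copies (95% identity over 50% of the length). The counts were fitted by edgeR 4.0.16 under R 4.3.3: filterByExpr (6137 genes), TMM, 1 mean per group over 9 libraries with 6 residual degrees of freedom, quasi-likelihood F-tests and Benjamini-Hochberg adjustment, with an adjusted p under 0.05 as the call. The SE of a change was derived from its F statistic. A prior count of 2 was added for log2 CPM. The script was tested on simulated counts. Members, lists and tests were chosen with earlier results of these data known. All members were named, and from each list up to 4 called genes or the gene of lowest p. The 5 most like patterns were also named. Alternatives were DESeq2 1.42.0, other scalings and filters, 6-library fits, leaving out each library and a replicate block.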

Additional observations from a re-analysis of the deposited data

How the results depend on the processing

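RLE factors and no filter on low counts changed no count of calls among the members and kept the direction of each member's change in the 3 comparisons. Of 411 recomputed member changes, 382 kept direction and side of the threshold, 18 became called and 11 turned sign, all 11 when 1 library was left out. With upper-quartile factors edgeR called 1 member and 19 genes, or 0.310% of genes tested, for Ind_B against control. A minimum mean of 50 counts left 14 calls for Ind_Z against Ind_B. The 6-library fits called 1 gene for Ind_B and 59 for Ind_Z against control, and 4 members and 1251 genes for Ind_Z against Ind_B. Those 1251 were 20.5% of genes tested, and the 4 members were called lower, where 7.40% of genes were called lower. DESeq2 called 1 member and 302 genes, 0 members and 440 genes, and 2 members and 630 genes in that order. These genes were 4.95%, 7.08% and 10.5% of those with an adjusted p. With 1 library left out, members called ranged from 0 to 1, 0 to 1 and 0 to 5, and all genes called from 0 to 332, 16 to 1213 and 0 to 1453. Where all-gene counts were 0, edgeR gave 816 to 1233 genes for Ind_B against control and 917 to 1417 for Ind_Z against Ind_B at an unadjusted p under 0.05. The test of all 3 groups called 0 to 4 members and 0 to 1467 genes, with 1035 and 1040 at an unadjusted p under 0.05 where it called 0. The cause of these shifts was not tested.

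The changes that turned sign had leave-one-out ranges of −0.0912 to 0.18 (IME2) and −0.0090 to 0.53 (ZIP1) for Ind_B against control. They were −0.17 to 0.10 (IME2), −0.48 to 0.0025 (REC8) and −0.0588 to 0.19 (SPO11) for Ind_Z against control, and −0.18 to 0.0414 (IME2) and −0.18 to 0.0581 (SPO11) for Ind_Z against Ind_B. The median of the 9 tested members stayed within 0.11 to 0.39, −0.29 to −0.14 and −0.54 to −0.37 in the 3 comparisons with 1 library left out.

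A replicate block could be fitted to the 6 antifoam libraries, since control12 and control13 carry no replicate number. It called 572 of 6106 genes, or 9.37%. The 2 members called, REC102 and REC114, were lower in Ind_Z than in Ind_B, where 1.51% of genes were called lower. The numbers were not taken as pairs: deviations of same-numbered libraries correlated over genes at −0.0229, −0.238 and −0.442.

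Depth limited IME1, at 2 to 17 counts per library, and SPO13, at 8 in control13.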
